A study of Homo sapiens with 6 samples.

Results

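MDA-MB-231 cells that received a scrambled precursor, and no active miRNA, are described here across all genes of the array. The rule took the arrays labelled as scrambled control, replicates 1 and 2, which are 2 of 6 arrays in the series. The other 4 arrays carry the same cells given a precursor of hsa-miR-205-5p (2 arrays) or of hsa-miR-214-3p (2 arrays). All 3 groups went through the same reverse transfection with a lipid reagent and were collected after 72 h, so every level below is that of transfected cells, and untransfected cells were not analysed here. The model is 1 cell line grown in culture, with no stroma, vessels or immune cells around it. The labels do not say whether both arrays of a group came from separate cultures, so every p-value below measures only the spread between these arrays, which may be technical.

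MDA-MB-231 is an established human breast cancer line of the triple-negative kind, the class that lacks oestrogen receptor, progesterone receptor and amplified HER2. It is widely used as a model of cells that have gone through epithelial-mesenchymal transition (EMT), in which epithelial cells give up E-cadherin junctions for vimentin filaments, a matrix-binding coat and motility. The line also carries activating mutations of the RAS pathway and a deletion of the CDKN2A locus. Measurements in bulk RNA cannot tell fewer cells of a type apart from less RNA per cell.

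The control precursor differs from the active ones in its sequence, and the mature strands of the active ones are shown because they are what was added to the other 4 arrays. No miRNA was measured on these arrays. Capitals mark the seed, bases 2 to 8 from the 5′ end, which pairs with target mRNAs. Both come from RefSeq (GRCh38.p14), the first at chr1:209432166-209432187 on the plus strand and the second at chr1:172138816-172138837 on the minus strand. Their seeds differ.
hsa-miR-205-5p: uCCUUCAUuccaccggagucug
hsa-miR-214-3p: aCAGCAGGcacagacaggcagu

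Each array is a 1-colour Agilent design, and the scanner software marks a spot as well above background when it is clearly brighter than its surroundings. Signals below are log2 values after division by the 75th percentile of the array, so 0 is that percentile and each unit is a doubling. A brighter probe may bind its target better, so an order of brightness is an order of probes, and it does not rank the amounts of RNA of different genes. Both control arrays were the brightest of the series, with 40.7% and 42.2% of spots well above background, and the other 4 ranged from 35.4% to 39.5%. No spot was saturated. The control arrays also lay farther apart from each other than the arrays of either precursor, with a root mean square log2 difference of 0.60 over 17719 probes, against 0.38 for miR-205-5p and 0.25 for miR-214-3p. Both values of the control are therefore given throughout.

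Of the 21743 genes on the array, 11666 (53.7%) had a probe well above background on both control arrays and are called detected here. A further 961 reached it on only 1 array with any given probe, and 9116 reached it on neither. Protein-coding genes were detected more often than long noncoding RNAs, with 10763 of 18226 (59.1%) against 480 of 2531 (19.0%). Small nucleolar RNAs stood between these values at 164 of 295 (55.6%). A gene that is not well above background may still be transcribed: on control replicate 1 the dimmest probe marked as such lay at −2.24, and on replicate 2 at −2.54.

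The markers chosen for this line gave bright mesenchymal genes, a detected EGFR and undetected hormone receptors, while ERBB2 and CDH1 were detected as well. VIM, which encodes the intermediate filament vimentin of mesenchymal cells, stood at 7.64 on replicate 1 and 7.58 on replicate 2, a signal above 98.8% and 98.9% of all probes. CD44, the hyaluronan receptor, stood at 8.51 and 8.28, and its second probe at 0.94 and 0.61, which shows how far probes of 1 gene can lie from each other. EGFR, the epidermal growth factor receptor typical of basal tumours, was lower at 1.91 and 1.45, with 3 of 3 probes well above background. ERBB2, which encodes HER2, was detected at 4.26 and 4.19. CDH1, which encodes E-cadherin, was dim at −1.09 and −1.33, above 69.1% and 67.9% of all probes, yet well above background on both arrays. None of these 5 genes differed by 1 log2 unit between the control arrays.

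The hormone receptors were the markers that were not detected. ESR1, the oestrogen receptor, had 3 probes and none was well above background, and its brightest gave −2.07 and −3.89. With a looser flag of the scanner software, and with a threshold from the negative control spots, ESR1 counted as present on both arrays. PGR, the progesterone receptor, had 2 probes that were not well above background, at −4.21 and −4.57 for the brighter one. Of the receptors that define the triple-negative class, PGR was thus not detected, the call for ESR1 depends on the flag used, and ERBB2 was detected, with a signal above 92.9% of all probes on replicate 1.

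**Figure D1:**
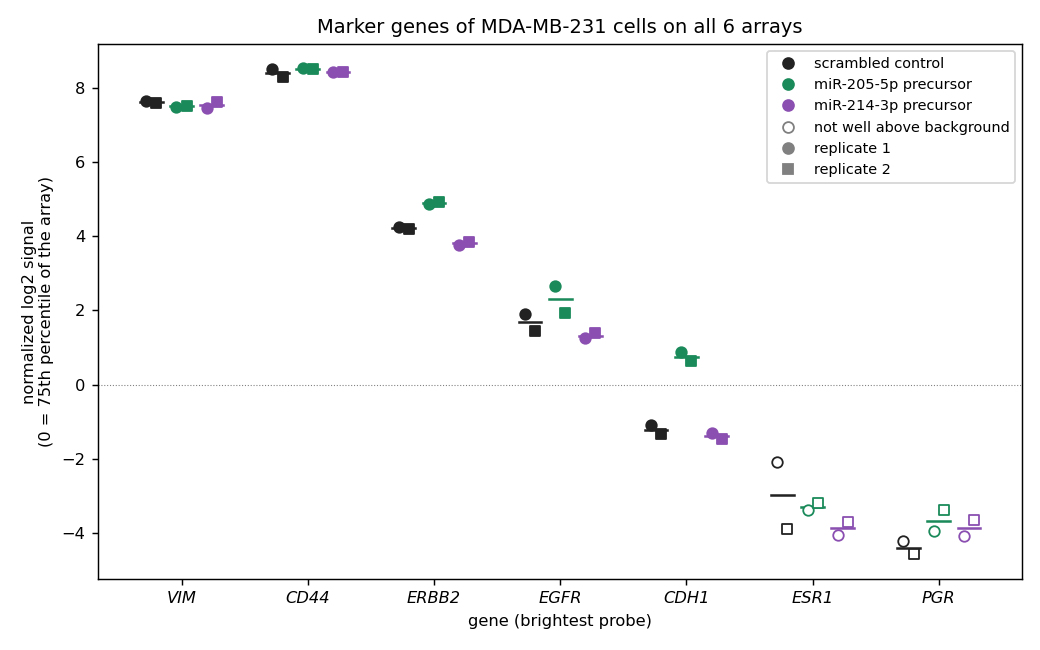
Normalized log2 signal (log2 of processed signal minus the 75th percentile of the array) of the 7 markers on all 6 arrays, with 1 point per array, colour by group and a line at each group mean. Open points are not well above background. VIM and CD44 sit near 8 on every control array, CDH1 sits near −1, and PGR lies lowest at −4.21 and −4.57.

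Ribosomal protein genes held most of the very brightest probes of the control cells, and fewer further down. The 100 brightest probes held 21% and 20.5% of all signal, and the 100 brightest genes of both arrays shared 89 members. Among the 15 brightest genes, 10 encode ribosomal proteins, and 40 of the 100 brightest and 64 of the 500 brightest stood in the ribosomal list. RPS2, a protein of the small ribosomal subunit, had the probe with the highest mean, at 11.13 and 11.01. RPL6, RPS21, RPL13, RPL7A, RPL38, RPS27, RPL41, RPLP0 and RPL35 belong to the same kind of gene, of which RPLP0 was at 10.44 and 10.40. RNA28SN5 is a ribosomal RNA rather than a coding gene.

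Other genes in this top group were ACTB, the cytoskeletal actin, at 10.49 and 10.35, and MIF, a secreted cytokine that also acts as a tautomerase, at 10.61 and 10.27. POLR2L, a small subunit shared by RNA polymerases, and AP2S1, a subunit of the clathrin adaptor, completed the 15, the latter at 10.68 and 10.12. The brightest probe of each of the 15 was called different with neither precursor (limma, adjusted p below 0.05 and at least 2-fold). Dimmer second probes of RPLP0 and RPL35 were called lower with miR-205-5p, by −1.63 (adjusted p = 0.00924) and −1.25 (adjusted p = 0.015) on the log2 scale. All 76 ribosomal protein genes and all 26 housekeeping genes on the array were detected, beside 53.7% of all genes. ACTB had a dimmer probe that read 3.73 and 6.07, a difference of −2.34 that its bright probe did not show.

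The mesenchymal programme was broadly present. Of 30 mesenchymal genes, 25 were detected (83.3%, beside 53.7% of all genes), with a median log2 signal of 3.82 against −1.24 over all genes. LGALS1, which encodes galectin-1, read 8.83 and 9.07, and S100A4, a calcium-binding protein linked to motility, read 8.66 and 9.03. ANXA1, a membrane-binding annexin, read 7.99 on both arrays. AXL, a receptor tyrosine kinase of mesenchymal tumour cells, read 7.82 and 7.76. These 4 probes were bright on both arrays, which differed by less than 1.5-fold for each.

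The matrix genes fell into a detected and an undetected group. COL6A1 and COL4A2, chains of the pericellular and basement membrane collagens, were detected at 7.84 and 7.45 and at 6.87 and 6.42. TGFBI, a secreted matrix protein, was detected at 5.44 and 5.09. SPARC, THY1, POSTN, FBN1 and COL6A3, which mark matrix-producing fibroblasts, were not well above background on either array. FN1, which encodes fibronectin, was dim at −0.77 and −0.66, and CDH2, which encodes N-cadherin, was dimmer still at −1.98 and −1.82.

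Of 13 transcription factors that drive EMT, 7 were detected (53.8%, which is close to the 53.7% of all genes). ZEB1, a repressor of CDH1, read 4.07 and 3.50, and its second probe read 1.87 and 2.39. SNAI1, which encodes Snail, read 1.72 and 1.84, and SNAI2, which encodes Slug, read 1.00 and 1.52. ZEB2 was at the edge of detection at −2.08 and −1.97. TWIST1, TWIST2, SNAI3, PRRX1, FOXC2 and GSC were not well above background on either control array. TCF3, TCF4 and KLF8 were the other detected factors.

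Epithelial genes were not uniformly low. Of 27 genes of junctions and of the epithelial state, 17 were detected (63.0%, beside 53.7% of all genes). CLDN4, a tight junction claudin, was bright at 8.63 and 8.15. PKP3, a desmosomal plakophilin, read 6.11 and 5.71, and DSP, the desmosomal plaque protein, read 4.12 and 4.01. EPCAM, the epithelial adhesion molecule, was low but detected at 0.35 and 0.83. The genes that were not well above background included the regulators of the epithelial state ESRP1, GRHL1, GRHL2 and OVOL1, and the junction genes CLDN1, TJP3, MARVELD2 and RAB25. CLDN4, PKP3 and DSP were thus well above background in cells whose E-cadherin probe was dim.

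The keratins and luminal genes gave a mixed picture. KRT18 and KRT19, keratins of simple epithelium, read 9.32 and 9.06 and 9.67 and 9.26. KRT8, the partner of KRT18, read 7.39 and 6.93 with its brightest of 3 probes. TFF3 and TFF1, secreted trefoil peptides usually described as oestrogen-responsive, read 8.43 and 8.08 and 6.09 and 6.25, although ESR1 was not detected. XBP1 and SPDEF, luminal transcription factors, were detected at 6.24 and 5.92 and at 4.48 and 4.2. FOXA1, the pioneer factor of luminal cells, was not well above background, and GATA3 was dim at 0.44 and 0.10. In all, 13 of 21 luminal genes were detected (61.9%, beside 53.7% of all genes).

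Of 24 basal genes, 15 were detected (62.5%, beside 53.7% of all genes). The hemidesmosome and laminin-332 genes were bright, with ITGB4 at 7.95 and 7.65 and LAMB3 at 7.26 and 6.64. SFN, which encodes the epithelial 14-3-3 sigma, read 8.40 and 7.97, and KRT81, a hair keratin found in some breast lines, read 9.01 and 8.46. The keratins that define basal cells were dim or absent: KRT5, KRT6A, KRT6B and KRT16 were not well above background, KRT17 read −0.14 and −0.13, and KRT14 read −0.69 and −1.70. TP63, the master factor of basal epithelium, and MME and CNN1, myoepithelial markers, were also not detected.

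**Figure D2:**
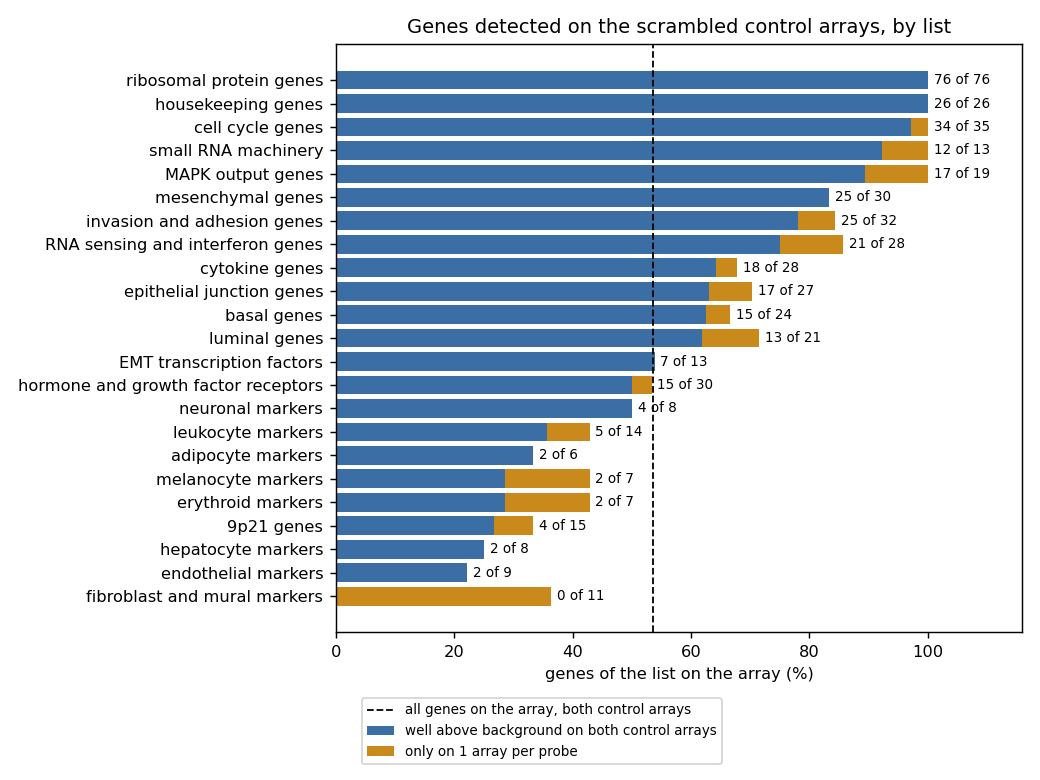
Share of the genes of each list (percent, horizontal axis) with a probe well above background on both control arrays, in blue, with genes that reached it on only 1 array per probe added in orange, the counts at each bar and the value of all genes as a dashed line. Housekeeping and ribosomal protein genes reach 100%, mesenchymal genes 83.3% and fibroblast and mural markers 0%, around the 53.7% of all genes.

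Among 30 receptors for hormones and growth factors, 15 were detected, beside 53.7% of all genes. MET, the receptor of hepatocyte growth factor, read 5.36 and 5.04, and EPHA2, an ephrin receptor, read 4.32 and 4.15. TGFBR2, which binds TGF-beta, was detected at 6.49 and 6.91, whereas the single probe of its partner TGFBR1 was not well above background. NR3C1, the glucocorticoid receptor, read 6.74 and 6.19 with 3 of 3 probes detected. GPER1, a G protein-coupled receptor that binds oestrogen, was detected with 4 of 4 probes, the brightest at 3.80 and 3.39. ESR2, ERBB4, FGFR2, FGFR4, PDGFRA, PDGFRB, KIT, PRLR, GHR and RET were among those not detected. None of ESR1, ESR2 and PGR reached the flag on both arrays.

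The invasion and adhesion list was mostly detected, with 25 of 32 genes (78.1%, beside 53.7% of all genes). PLAU, which encodes the protease urokinase, read 9.06 and 8.83, and TIMP2, a metalloproteinase inhibitor, read 9.29 and 9.09. CTSD, the lysosomal protease cathepsin D, read 8.19 and 7.74. Of the matrix metalloproteinases, MMP14, the membrane-bound collagenase, read 3.73 and 3.91 and MMP1, the interstitial collagenase, read 3.98 and 3.90. MMP2, MMP3, MMP7, MMP10 and MMP13 were not detected, and MMP9 reached the flag on 1 array. With the looser flag 28 of the 32 genes were detected, beside 69.7% of all genes.

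Genes transcribed downstream of RAS and MAPK signalling were detected in 17 of 19 cases (89.5%, beside 53.7% of all genes). IER3, an immediate early gene, read 8.33 and 8.32. DUSP6 and DUSP4, phosphatases that switch off MAP kinases and are induced by them, read 6.46 and 6.77 and 6.13 and 5.93. MYC read 6.58 and 6.44. For these 4 genes the arrays lay within 1.5-fold of each other. SPRY4, SPRED2 and JUN differed by 2-fold or more between the arrays, JUN reading 1.43 and 0.04.

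Cytokines and growth factors were detected in 18 of 28 cases (64.3%, beside 53.7% of all genes). VEGFC, a lymphatic growth factor, read 6.17 and 6.2, and AREG, an EGFR ligand, read 5.76 and 5.79. IL6 read 3.73 and 3.87, CSF1 read 3.89 and 3.63, and CSF2 read 2.31 and 2.03. CXCL8, IL1A, CXCL3, CXCL5, CCL2, CCL20, CSF3, TNF and BMP2 were not well above background. CSF1 and CSF2 were thus detected while CSF3, the third of these colony-stimulating factors, was not.

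Proliferation genes were detected in 34 of 35 cases (97.1%, beside 53.7% of all genes), the exception being CCNE2, which reached the flag on 1 array only. MCM7, part of the replicative helicase, read 8.51 and 8.36, and BIRC5, which encodes survivin, read 7.74 and 7.54. CENPF, a kinetochore protein, read 7.31 and 7.19. MKI67, the proliferation antigen, was detected with 3 of 3 probes, the brightest at 3.78 and 4.2. Of 8 CDK inhibitors, which brake the cell cycle, 7 were detected (87.5%), all but CDKN2B. CDKN2D read 7.44 and 6.85, and CDKN1A, which encodes p21, read 1.60 and 1.78.

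The 9p21 region around the CDKN2A deletion of this line was detected in 4 of 15 genes (26.7%, beside 53.7% of all genes). This count depends on the flag. With the looser thresholds 8 (53.3%) passed, beside 69.7% and 66.8% of all genes, and 1 had every probe detected, beside 44.9% of all genes. MTAP, which lies next to CDKN2A and encodes a methionine salvage enzyme, had 3 probes and none was well above background, the brightest at −4.16 and −4.30. CDKN2B and the antisense transcript CDKN2B-AS1 were not detected either. CDKN2A itself had 1 probe not well above background at −4.14 and −3.71, but its other probe read 0.11 and −0.53 and was well above background on both arrays. That signal is at odds with the deletion known for the line, and what the probe binds was not tested.

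Genes whose products process miRNAs and act with them were mostly detected. Of 13 genes of miRNA processing and silencing, 12 were detected (92.3%, beside 53.7% of all genes). DICER1, which cuts precursors to mature miRNAs, read 4.39 and 3.98, and AGO2, the slicing Argonaute, read 3.75 and 3.69. DROSHA, which cuts the primary transcript in the nucleus, read 5.66 and 5.24. AGO4 reached the flag on 1 array only. DNM3OS, the transcript that carries miR-214, had 1 probe just detected at −0.66 and −1.32. Its second probe, at −4.56 and −4.83, was not well above background. No probe is named for MIR205HG, which carries miR-205.

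Genes of RNA sensing and of the interferon response, which double-stranded RNA can raise, were detected in 21 of 28 cases (75%, beside 53.7% of all genes). ISG15, a ubiquitin-like protein, read 8.52 and 8.27, and IFIT1, which binds foreign RNA, read 5.8 and 5.85. RIGI, a sensor of double-stranded RNA, read 3.96 and 3.74. IFNB1, which encodes interferon beta, and CXCL10, its chemokine target, were not well above background, and RSAD2 differed widely at −1.23 and −4.53. Whether these levels come from transfection cannot be told apart from the state of the line, since no untransfected sample was analysed.

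A list of 23 genes for miR-205-5p and 14 for miR-214-3p was taken from the target genes that the study names in its text and primers, not from its full target sets, and each of these was detected in the control. The study chose them on these samples for being lower with a precursor, so this count is no independent evidence. SCAMP3, a vesicle protein, was among the bright ones at 8.41 and 7.88, and CDC42EP3, an effector of CDC42, among the dim ones at −2.19 and −0.49.

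Fewer than 53.7% of the markers of each other cell type were detected, the share of all genes, but several of these counts depend on the flag. Of 11 fibroblast and mural markers 0 were detected, COL1A1, COL1A2, COL3A1, DCN, FAP, PDGFRA and PDGFRB among them, and 4 reached the flag on 1 array. Without control replicate 1 this count was 3, without replicate 2 it was 1, and 4 or 5 passed the looser flags. Of 14 leukocyte markers 5 were detected, namely CD79A at 3.47 and 2.60, CD68 at 2.82 and 3.43, CSF1R at 1.84 and 1.57, CD14 at 1.22 and 0.86, and CD3D at −0.36 and 0.08. CD3E, CD2, MS4A1, ITGAM, ITGAX, NKG7 and GNLY were among those not detected. Endothelial markers were detected in 2 of 9 cases, ESAM at 4.28 and 4.35 and PECAM1 at −0.41 and −0.47, while VWF, CDH5 and KDR were not. Adipocyte, melanocyte and hepatocyte markers were detected in 2 of 6, 2 of 7 and 2 of 8 cases, erythroid markers in 2 of 7, and neuronal markers in 4 of 8. With the looser thresholds 5 of 7 erythroid, 4 of 7 melanocyte and 4 or 5 of 9 endothelial markers passed, beside 66.8% and 69.7% of all genes. Among those detected with the stricter flag were CFD and CIDEC (adipocyte), MITF and PMEL (melanocyte), SERPINA1 and APOA1 (hepatocyte), and ENO2, GAD1, RBFOX3 and SNAP25 (neuronal), while ADIPOQ, MLANA, ALB, HBB and SYP were among those not detected.

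Detected and undetected genes differed in promoter sequence. RefSeq (GRCh38.p14) gave a 300-base window (250 before and 50 after the start) for 14640 of 18226 protein-coding genes (80.3%), taking the first listed start of a gene. A promoter was called CpG-rich when its CG dinucleotides reached 0.6 of the number expected from its C and G content and its GC content reached 50%. Among detected genes 7109 of 8889 (80.0%) had a CpG-rich promoter, against 2089 of 5139 genes detected on neither array, and 65.5% of all. The difference was 39.3 percentage points, and 38.6 when only the 100 bases before the start were read. The median number of CG dinucleotides was 26 in detected genes and 10 in undetected ones.

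Among detected genes the share varied less. With these divided into 10 equal groups by signal, 67.7% of the dimmest group had a CpG-rich promoter, and 83.5% of the brightest. The letters TATAAA, searched on both strands, occurred in 9.39% of all windows, in 6.02% of detected and in 15.2% of undetected genes. Among the lists, 25 of 26 cell cycle and 21 of 21 housekeeping genes with a window had CpG-rich promoters, but 4 of 13 basal and 11 of 21 cytokine genes. These are descriptions of the windows; genes are not independent samples and no test was made.

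**Figure D3:**
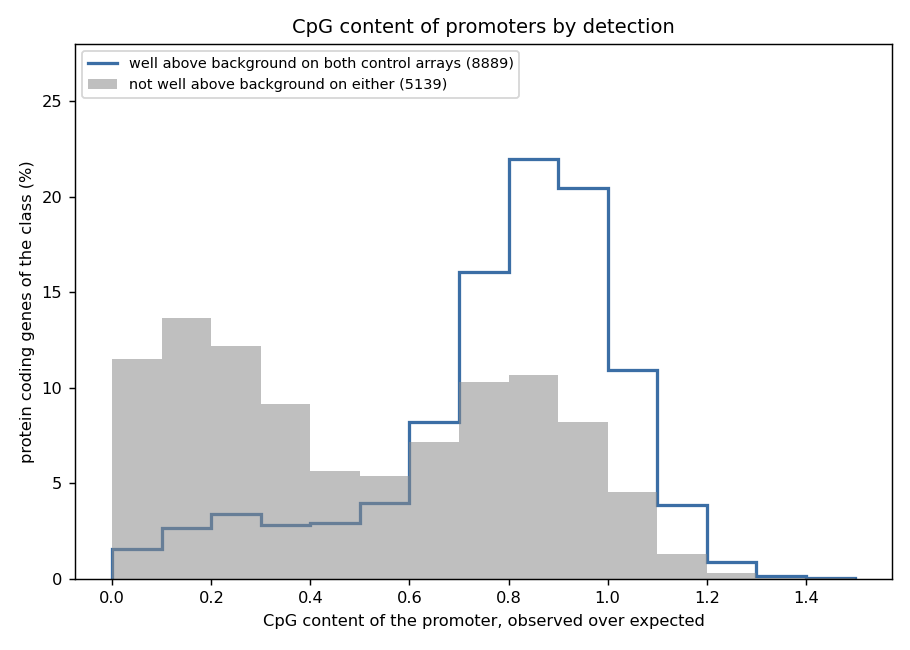
Distribution of the CpG content of promoters (observed over expected CG dinucleotides, horizontal axis; percent of genes, vertical axis) for protein-coding genes detected on both control arrays and on neither. Detected genes centre on a median of 0.84 and undetected genes on 0.46.

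The 100 bases before the start of 5 genes are printed as examples, 3 of them detected markers and the others undetected ones, with each CG in capitals. By the 300-base window EGFR and ERBB2 are CpG-rich and PGR and KRT5 are not. VIM, though bright, is not CpG-rich either, with a GC content of 48%, and 40.7% of undetected genes do have CpG-rich promoters. VIM lies at chr10:17228141-17228240 on the plus strand and holds 5 CG pairs. EGFR at chr7:55018917-55019016 on the plus strand holds 11, and ERBB2 at chr17:39687994-39688093 on the plus strand holds 9. PGR at chr11:101129078-101129177 on the minus strand holds 2, and KRT5 at chr12:52520395-52520494 on the minus strand holds 3. TATAAA was found in none of these 5 windows.
VIM: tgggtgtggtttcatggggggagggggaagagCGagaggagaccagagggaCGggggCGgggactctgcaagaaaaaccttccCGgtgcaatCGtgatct
EGFR: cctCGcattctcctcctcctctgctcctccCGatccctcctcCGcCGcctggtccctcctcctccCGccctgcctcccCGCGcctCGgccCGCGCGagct
ERBB2: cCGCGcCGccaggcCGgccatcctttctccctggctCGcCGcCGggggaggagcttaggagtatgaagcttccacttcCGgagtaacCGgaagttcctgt
PGR: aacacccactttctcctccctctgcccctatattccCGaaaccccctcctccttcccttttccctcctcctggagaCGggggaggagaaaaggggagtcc
KRT5: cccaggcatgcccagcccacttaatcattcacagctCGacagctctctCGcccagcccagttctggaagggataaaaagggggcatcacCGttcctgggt

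How far both control arrays agree sets how firmly these levels can be read. Across the 17719 probes well above background on both, Pearson's r was 0.975 and Spearman's rank correlation 0.967, which describe probes and not independent samples. The flag itself was the same on both arrays for 95.3% of probes. Within 1.5-fold lay 75.3% of probes, and 1553 (8.76%) differed by 2-fold or more. The same share was 2.13% between the miR-205-5p arrays and 0.57% between the miR-214-3p arrays. Over the 14712 probes that had the flag on every array of the series, the root mean square difference was 0.59 for the control against 0.36 and 0.24 for the precursors, so the order was the same on a shared set of probes.

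**Figure D4:**
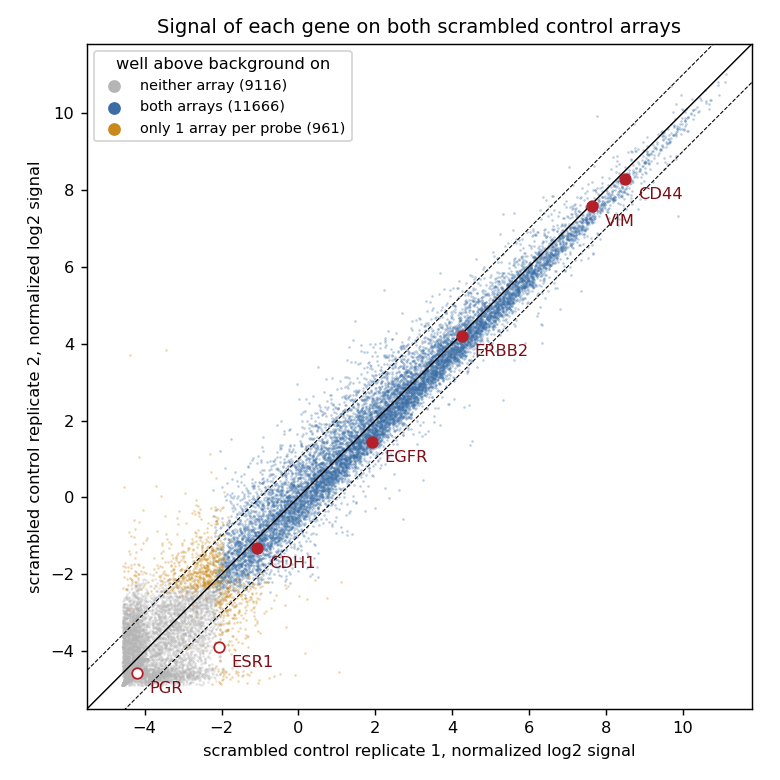
Normalized log2 signal of control replicate 1 (horizontal axis) against replicate 2 (vertical axis), with 1 point per gene and lines at equality and at 2-fold. Colour marks the flag (9116 genes on neither array, 11666 on both, 961 on only 1 array per probe), red points are the 7 markers, and 887 of the 11661 detected genes compared fall outside the 2-fold lines.

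The spread was found at every signal level. With probes divided into 10 equal groups by signal, the standard deviation of the difference was 0.50 in group 1, the dimmest, reached 0.69 in groups 2 and 4, and was 0.44 in group 10, the brightest. In the brightest group the miR-205-5p pair stood at 0.24 and the miR-214-3p pair at 0.17. Across 8 blocks of rows and 4 of columns on the array, the median difference ran from 0.079 to 0.131 log2 units, a similar value in each. Where a gene had a second detected probe, the differences of both probes correlated at 0.251 over 2524 genes. Of 162 genes whose brightest probe was 2-fold apart, the second probe moved the same way in 117 and by 2-fold in 29. The position of the control pair on the slide cannot be told apart from its group.

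**Figure D5:**
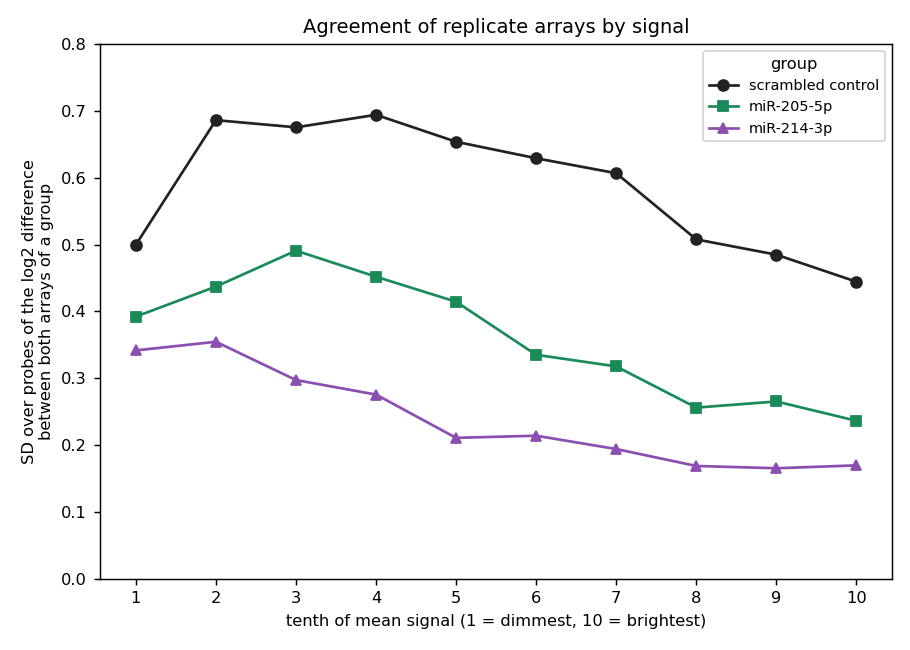
Standard deviation of the log2 difference between the arrays of a pair (vertical axis) over 10 equal groups of probes by signal, dimmest to brightest (horizontal axis), with 1 line per pair. The control pair lies highest in each of the 10, at 0.50 in the dimmest and 0.44 in the brightest.

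By gene, 887 of 11661 (7.61%) differed by 2-fold or more between the control arrays, 269 higher on replicate 1 and 618 higher on replicate 2. The kinds of transcript differed between both directions. Of the 52 long noncoding RNAs among the 887, 42 were higher on replicate 1, whereas 582 of 796 protein-coding genes were higher on replicate 2. Of the 5 detected markers and the 15 detected receptors, 0 were 2-fold apart, numbers too small to set against the 7.61% of all genes. Of the cell cycle genes 7 of 34 were apart (20.6%, beside 7.61% of all genes).

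Of the 7 cell cycle genes that lay apart, 6 were lower on replicate 1 and 1 was higher. TOP2A, which untangles DNA before division, read 1.63 on replicate 1 and 3.97 on replicate 2. KIF20A, a mitotic kinesin, read 1.35 and 3.02, and RRM2, a subunit of ribonucleotide reductase, read 1.26 and 2.91. AURKA, TPX2 and BUB1B, of the spindle and its checkpoint, were also lower on replicate 1. PCNA, the sliding clamp of DNA replication, ran the other way at 4.45 and 2.42. Other members of the list such as MCM7, CENPF and BIRC5 lay within 1.5-fold, and the root mean square difference of the list was 0.82, against 0.24 and 0.12 in the precursor pairs.

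Other named genes also lay apart. LDHA, a glycolytic enzyme often used as a reference, read 5.33 and 7.37, and TUBB, a beta tubulin, read 6.36 and 7.82. ITGB1, the common beta integrin chain, read 3.06 and 4.63. TNRC6A, a scaffold of silencing complexes, read 0.74 and 2.52. RPS20 was the ribosomal gene that differed most, by 2.53 higher on replicate 1, and it and RPL4 were the only 2 of 76 ribosomal genes past 2-fold, with RPL23 at the limit (9.70 and 10.70).

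The genes with the largest deficit or excess on replicate 1 show which array stands apart for each. LYRM1 read −1.75 and 1.52 in the control, −1.27 and −2.17 with miR-205-5p, and 0.85 and 0.70 with miR-214-3p. KAT7, a histone acetyltransferase, read −2.03 and 1.21 in the control, −2.50 and −1.77 with miR-205-5p, and 1.03 and 1.04 with miR-214-3p. VDAC3, a channel of the mitochondrial outer membrane, read 1.47 and 4.58 in the control, 1.75 and 1.67 with miR-205-5p, and 4.34 and 4.48 with miR-214-3p. For these 3 genes replicate 1 thus read like the miR-205-5p arrays and replicate 2 like the miR-214-3p arrays.

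SPANXB1, a cancer-testis gene, read 2.23 and 5.38, with the other 4 arrays from 4.89 to 5.14, so that replicate 1 stood alone. INTS12, an Integrator subunit, read −0.03 and 2.96. CYTOR, a long noncoding RNA, read 5.32 and 2.54, with the other 4 arrays from 5.24 to 5.64, so that replicate 2 stood alone. The brightest probes of LINC01088, LOC100507547 and GALNT9-AS1 were also higher on replicate 1, LINC01088 at 2.73 and −0.55. Other probes, well above background on both arrays, did not show this gap. They differed by 0.17 and −0.09 for LOC100507547 and by 0.39 for GALNT9-AS1. The second probe of LINC01088 was not well above background.

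The arrangement seen for LYRM1, KAT7 and VDAC3 was common. Among the 887 genes, both miR-205-5p arrays lay nearer to control replicate 1 while both miR-214-3p arrays lay nearer to replicate 2 in 439, and the opposite held in 20. Over all 11661 genes these numbers were 3355 and 1058. Replicate 1 lay nearer to the mean of the other 4 arrays in 603 of the 887 genes (68.0%) and replicate 2 in 284. Over all 11661 genes these numbers were 6477 (55.5%) and 5184. In 202 of the 887 genes (22.8%) all 4 other arrays lay between both controls, against 556 (4.77%) of all 11661. Genes chosen for a wide gap leave more room between the controls. What sets this arrangement was not tested.

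The comparison with the precursor arrays asks where the baseline differs from cells with an active miRNA. Both comparisons share the control arrays. With miR-205-5p, 1528 of 11974 tested genes (12.8%) were called different from the control, 956 lower (7.98%) and 572 higher (4.78%). With miR-214-3p, 374 (3.12%) were called, 243 lower (2.03%) and 131 higher (1.09%). Both counts changed when 1 array was left out. Without control replicate 1 they were 2465 and 0, and without replicate 2 they were 1320 and 1151. Without miR-205-5p replicate 1 they were 771 and 0, and without either miR-214-3p array 617 and 0. Without miR-205-5p replicate 2, neither comparison had a call (limma; 1830 and 828 genes at 2-fold and unadjusted p below 0.05). In the other fits with 0 calls for miR-214-3p, 745 to 862 genes passed at that unadjusted p. Scaling the arrays to the median of all probes moved the median difference of all genes by −0.39 and −0.17, and the calls then split into 1876 lower and 211 higher for miR-205-5p and 278 lower and 44 higher for miR-214-3p.

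Among the baseline markers, only CDH1 was called with miR-205-5p and none with miR-214-3p. CDH1 read 0.87 and 0.64 with miR-205-5p, above both controls, and was higher by 1.965 (limma, SE 0.18, adjusted p = 0.00799). With normexp background correction the difference was 0.76, under the 2-fold limit. Of the 17 epithelial genes detected in the control, 8 were called higher and 2 lower with miR-205-5p, and their median difference was 0.65. Over all 11661 genes detected in the control 518 (4.44%) were called higher and 944 lower, with a median of 0.072. Under 5 other scalings and corrections 5 to 8 of the 17 were called higher and 1 or 2 lower. CRB3 and PRSS8, which had the flag on 1 control array, were tested through the precursor arrays and are not counted here. EPCAM rose by 2.40, and AP1M2, a clathrin adaptor subunit of epithelial cells, fell by 4.05. Of 25 mesenchymal genes, 1 was called lower (ITGA5) and 1 higher (CDH2) with miR-205-5p, beside 7.98% and 4.78% of all genes. Under the other scalings 1 to 5 were lower and 0 or 1 higher. With miR-214-3p 4 of the 25 were called higher (2 to 5 under the other scalings), beside 1.09% of all genes. VIM differed from the control by −0.10 with miR-205-5p (SE 0.15) and by −0.14 to −0.49 under the other scalings, and was called under none of them. Of 34 cell cycle genes, 9 were called lower with miR-205-5p, beside 7.98% of all genes, AURKB, FOXM1 and CDC20 among them. The list had a median difference of −0.72, with 8 to 19 called lower and 0 higher under the other scalings. With miR-214-3p 1 of the 34, CCNE1, was called lower, a share near the 2.03% of all genes.

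Some genes often used as references were lower with miR-205-5p. Of 26 housekeeping genes, 5 were called lower with miR-205-5p, beside 7.98% of all genes, and none with miR-214-3p. GAPDH, the glycolytic enzyme most often used for this, read 9.07 and 9.37 in the control and 7.59 and 7.48 with miR-205-5p, a fall of 1.69 on the log2 scale (limma, adjusted p = 0.0085). FTL, the light chain of ferritin, read 8.28 and 8.76 in the control and 5.77 and 5.57 with miR-205-5p. ENO1, PKM and UBB were the other 3. All 5 were called lower under each of the 5 other scalings and corrections as well. Of 76 ribosomal genes, 4 were called lower with miR-205-5p, RPS3, RPS9, RPL29 and RPS14, a smaller share than the 7.98% of all genes. The median of the ribosomal list was 0.16 here and −0.089 after quantile normalization, so it has no settled direction.

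The counts of the luminal, basal and RNA sensing lists stand beside the 7.98% of all genes called lower and the 4.78% called higher with miR-205-5p. Of 13 luminal genes, 3 were called lower with miR-205-5p, namely TFF1, TFF3 and MUC1, and 2 were called higher, KRT19 and MYB (0 or 1 higher under the other scalings). Of 15 basal genes, 5 were called higher, among them CDH3, ITGA6, OXTR and SFN, against 2 to 5 under the other scalings. Of the 21 genes of RNA sensing and the interferon response detected in the control, 4 were called higher with miR-205-5p, among them IFIT1 and IFIT2 (2 to 4 under the other scalings), and 2 lower, IFIT3 and IRF1. With miR-214-3p the luminal list had 0 calls, the basal list 1 higher (FOXC1) and the RNA sensing list 2 lower (TLR3 and IFNL2), beside 2.03% of all genes called lower and 1.09% called higher. With normexp both lists had 0 calls, and with scaling to the median of all probes the basal list had 0.

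Some genes reached the flag in the control cells only. In 169 of 21743 genes the flag was reached on both control arrays and on none of the other 4. This pattern held in 22 genes for miR-205-5p and in 21 for miR-214-3p. Without 1 or the other control replicate the count was 314 to 489. The 169 genes were dim, with a median log2 signal of −1.77, and since the flag on these arrays chose them, their levels are given as a description with no test. The control arrays had the largest share of spots above background, and the part of that in the count was not tested. The level needed for the flag also differs by array. The brightest probe without it lay at −1.72 and −1.91 on the control arrays and at −0.40 on miR-205-5p replicate 2. A gene can therefore lack the flag there at a level that has it in the control. HCP5, a noncoding RNA of the major histocompatibility region, read −0.43 and 0.12 and was at least 2.75-fold higher than with miR-205-5p. ESPN, which encodes the actin bundler espin, was at least 2.46-fold higher than with miR-205-5p and at least 3.49-fold higher than with miR-214-3p. NT5M, a mitochondrial nucleotidase, was at least 2.25-fold higher than with miR-214-3p. INTS5, an Integrator subunit, read −0.74 and −0.95 in the control, −1.81 and −0.84 with miR-205-5p, and −2.63 and −2.83 with miR-214-3p. Its level on miR-205-5p replicate 2 thus lay between both control values, without the flag. ARHGAP18, a GTPase activator, read −0.97 and −0.94 in the control. These bounds set the mean of the brighter group against the dimmest probe well above background on each dimmer array, or the probe's own signal where that was higher.

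The opposite pattern, again a description, held in 5 genes, which reached the flag on all 4 precursor arrays and on neither control array. ARHGAP20, a GTPase activator, was at least 2.48-fold lower in the control than with miR-205-5p and at least 2.43-fold lower than with miR-214-3p. FAM135A was at least 2.93-fold lower than with miR-205-5p and at least 1.83-fold lower than with miR-214-3p. ENTPD8, an ectonucleotidase, RASAL3, a RAS GTPase activator, and RBM20, a splicing factor whose brightest probe had the flag on 1 of 2 miR-205-5p arrays, were the others. Over all 6 arrays 10247 genes had the flag on every array and 8656 on none.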

How the data were processed

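RNA of 6 arrays in 3 groups of 2 (Agilent SurePrint G3 Human GE, 1 slide, 1 scan) was labelled with Cy3. The deposited scanner files hold intensity values that the authors obtained with Agilent Feature Extraction 11.0, already background-subtracted. A second deposited table holds log2 values of the same arrays, processed by the authors. The study's methods name GeneSpring for normalization, with settings not given in the sources used here. The columns of that table each have a median of 3.49 after rounding, correlate at 0.997 to 1.000 with log2 signal, and served as an alternative. Outlier spots were left out, spots of a probe averaged, and log2 signal taken minus the 75th percentile of each array. Names came from RefSeq through the probe accessions, for 30275 of 50599 probes, 21743 symbols in all. Probes that had the flag for signal clearly above background on each array of 1 or more groups (18464) were fitted with limma 3.58.1 in R 4.3.3 over all 6 arrays. Benjamini-Hochberg adjustment ran over those probes, and a gene was called at adjusted p below 0.05 and 2-fold. A gene is represented by its brightest kept probe. Normexp (offset 50) ran on median signal and local background, since no mean signal is in the files. The labels do not say whether replicate numbers pair the samples, and the main fit used no pairing. Deviations of arrays with the same number correlated at 0.008, −0.051 and 0.109 between groups. The number of arrays limits the precision. Fits were tested on simulated data. The genes named are the markers, list members, the 15 brightest and the 10 farthest apart. The 5 brightest with the flag in the control only, or everywhere but there, are named too. Members, lists and rules were chosen with earlier results of these data known. A few of these genes are not reported here. Alternatives are given after the results.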

Additional observations from a re-analysis of the deposited data

Results flagged for a closer look

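Of the 42 named genes and markers, 35 were tested between both precursors and well above background on both arrays of 1 or both of them. For 3 (8.57%) the precursors differed from each other by 2-fold or more (limma contrast of miR-205-5p with miR-214-3p, adjusted over all kept probes). Over the 11515 genes of that kind 2414 (20.96%) met the same rule, a larger share. CDH1 differed by 2.146 (SE 0.184, adjusted p = 0.00388), at 1.965 above the control with miR-205-5p and −0.18 from it with miR-214-3p. ERBB2 differed by 1.085 (SE 0.15, adjusted p = 0.00756), at 0.67 and −0.41 from the control, neither of them called. AP2S1 differed by 1.385 (SE 0.224, adjusted p = 0.011), at 0.66 and −0.73 from the control. KAT7, VDAC3 and LYRM1 lay farther apart between the precursors, and none of them met the rule.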

How the results depend on the processing

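The count of detected genes ranged from 9759 (every probe of a gene required) to 15145 (the positive and significant flag), around 11666. Genes with the flag in the control only numbered 169, and 314 to 489 without either control replicate. The root mean square difference of the control arrays was 0.41 with normexp against 0.60, and 0.56 to 0.71 elsewhere. Genes 2-fold apart numbered 374 with normexp and 2793 without the filter on dim probes, against 887, and 719 to 947 elsewhere. Calls with miR-205-5p (1528) were 750 with normexp, 320 without the filter and 617 with only the 4 arrays compared. The methods' t-test gave 1140 genes at unadjusted p below 0.05 and 2-fold, and 0 after Benjamini-Hochberg. Leaving out 1 array in turn gave 0 to 2465, with 0 without miR-205-5p replicate 2 (1830 at unadjusted p), 771 without its replicate 1 and 617 without either miR-214-3p array. Calls with miR-214-3p (374) were 246 with normexp and 0 without the filter (1292 at unadjusted p below 0.05 and 2-fold in limma) or with only the 4 arrays (828). The methods' t-test gave 549 and 0 after Benjamini-Hochberg. Leaving out 1 array in turn gave 0 to 1151: only the fit without control replicate 2 made calls, and the others gave 0, with 745 to 862 at unadjusted p. Where a group kept 1 array, its spread was taken from the other groups. The other settings stayed within 1.5 times, although scaling to the median of all probes changed the split of lower and higher calls from 956 and 572 to 1876 and 211 for miR-205-5p.

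With the replicate number as a block, miR-205-5p had 1341 calls and miR-214-3p 0 (823 at unadjusted p). The labels do not say whether the numbers pair the samples, and why the calls were lost was not tested. A block for slide or scan was not run, as all arrays share both.

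Among single genes, 479 fold changes kept their direction and side of the threshold, 30 lost the call, 7 gained it and 22 changed sign, of which 0 were called under either setting. CD44 with miR-205-5p (0.12) was −0.13 with quantile normalization and in the authors' table, −0.27 with scaling to the median and −0.18 with normexp. With miR-214-3p, scaling to the median gave CD44 −0.14, CDH3 −0.096 and EPCAM −0.091, against 0.029, 0.070 and 0.074. Normexp gave CD44 −0.16, EPCAM −0.12, CGN −0.068 and CDH1 0.012. The mean of the kept probes gave CD44 −0.15 and EGFR 0.11. KRT19 (−0.025) was 0.036 with quantile normalization and 0.022 in the authors' table. Leaving out 1 array in turn gave a range across 0 with miR-214-3p for CD44 (−0.085 to 0.14), CDH3 (−0.061 to 0.20), EPCAM (−0.16 to 0.31), KRT19 (−0.23 to 0.18) and VIM (−0.14 to 0.019). The ESR1 call moved under 2 flags. Detection of lists moved in 25 of 196 cases. The cause of these shifts was not tested. Signal over background limits the dim genes, and 2 arrays a group limit the rest.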
